A study of Mus musculus with 6 samples.

Results

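The 9 genes described here code for the proteases of the chymase cluster of mouse chromosome 14 (Cma1, Cma2, Mcpt1, Mcpt2, Mcpt4, Mcpt8, Mcpt9 and Ctsg) and for carboxypeptidase A3 (Cpa3), which lies on chromosome 3. They were chosen by name, with earlier results of these data known, and their transcripts were found in the tables by RefSeq accession. They were 9 of 35297 genes paired with a transcript, 18894 of which had reads. All 9 had at least 195 reads in every library and passed the filter on low counts. RNA was sequenced from bone marrow-derived mast cells (BMMCs), which are grown from marrow in vitro, of wild-type BALB/c mice (3 libraries, S9 to S11) and wild-type C57BL/6 mice (3 libraries, S12 to S14). Stem cell factor, TGF-β1, IL-9 and IL-3 were in the medium of all cultures, which were taken on day 20. No treatment separates the groups, but the strains differ in their genomes. The authors cite earlier reports of mutations in a tryptase gene of C57BL/6 and a protease inhibitor gene of BALB/c. The comparison asked how the protease content of mast cells differs between the strains. The sources used here call the libraries biological replicates without saying whether each came from its own mouse, so the p-values measure the spread between these libraries. A culture system of this kind models mast cells under fixed cytokines, not the cells of a tissue.

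Mast cells pack their granules with proteases bound to heparin chains on serglycin, and release them when IgE receptors are cross-linked. The chymase cluster encodes serine proteases that cut after bulky residues or have drifted to other specificities. Mcpt1 and Mcpt2 are the pair typical of mucosal mast cells, while Mcpt4, Cma1 and Cpa3 are typical of connective tissue mast cells. Mcpt8 is best known from basophils and Ctsg from neutrophils. Cpa3 is no serine protease but a zinc carboxypeptidase that trims the C-terminal ends that chymases and related enzymes leave.

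The promoters are shown for 5 genes that stand for the patterns described below. Mcpt1 was abundant, and Mcpt4, whose promoter is the most like that of Mcpt1 among those available, was scarce. Ctsg was lower in C57BL/6, Mcpt9 was higher, and Cpa3 differed least. Each line holds the 250 bases before the RefSeq transcription start, 5′ to 3′ on the strand of the gene. The sequences are those of the RefSeq promoter table (build GRCm38.p6), which held entries for 7 of the 9 genes. The positions come from an exact match to GRCm39, with 1 match each. Capitals mark GATAA (bound by GATA factors), TGTGGT (RUNX factors) and CATGTG (an E-box of the kind MITF binds), on either strand. CACGTG, GTCTAGAC and CAGACA, also searched on both strands, were in none of the 7 windows. The positions are chr14:56255171-56255420 (+) for Mcpt1, chr14:56299768-56300017 (-) for Mcpt4, chr14:56340032-56340281 (-) for Ctsg, chr14:56267953-56268202 (-) for Mcpt9 and chr3:20296346-20296595 (-) for Cpa3.
Mcpt1: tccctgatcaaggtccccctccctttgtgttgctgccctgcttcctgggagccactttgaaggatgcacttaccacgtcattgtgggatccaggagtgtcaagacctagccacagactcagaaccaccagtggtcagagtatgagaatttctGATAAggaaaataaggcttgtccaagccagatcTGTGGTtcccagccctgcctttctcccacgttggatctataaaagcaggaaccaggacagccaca
Mcpt4: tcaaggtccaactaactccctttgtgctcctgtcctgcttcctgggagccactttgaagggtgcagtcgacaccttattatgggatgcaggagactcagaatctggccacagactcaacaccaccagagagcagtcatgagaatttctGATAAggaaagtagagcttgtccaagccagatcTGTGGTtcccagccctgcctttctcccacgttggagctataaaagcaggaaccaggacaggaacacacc
Ctsg: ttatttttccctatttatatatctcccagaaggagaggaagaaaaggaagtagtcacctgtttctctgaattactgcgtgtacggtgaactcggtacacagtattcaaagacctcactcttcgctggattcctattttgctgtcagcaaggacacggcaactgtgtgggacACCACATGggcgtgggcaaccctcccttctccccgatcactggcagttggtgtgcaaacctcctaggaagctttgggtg
Mcpt9: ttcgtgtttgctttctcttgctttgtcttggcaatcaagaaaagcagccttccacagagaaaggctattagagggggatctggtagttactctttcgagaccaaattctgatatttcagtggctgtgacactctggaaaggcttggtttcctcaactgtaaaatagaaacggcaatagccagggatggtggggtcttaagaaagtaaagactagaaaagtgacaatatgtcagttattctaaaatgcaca
Cpa3: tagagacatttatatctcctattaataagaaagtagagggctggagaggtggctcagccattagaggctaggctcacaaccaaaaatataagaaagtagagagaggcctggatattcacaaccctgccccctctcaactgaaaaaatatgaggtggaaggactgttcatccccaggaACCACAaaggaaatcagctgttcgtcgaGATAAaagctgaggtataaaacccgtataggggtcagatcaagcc

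The Mcpt1 and Mcpt4 windows matched at 209 of 258 aligned columns (81.01%), whereas no other pair of the 7 promoters exceeded 50.36%. Both carry GATAA and TGTGGT in the same order, at positions -98 and -65 in Mcpt1 and -102 and -69 in Mcpt4, counted from the start to the first base of the match. GATAA was also found in Cpa3 (-45) and Cma1 (-194). TGTGGT was also found in Cpa3 (-73), Ctsg (-79) and, in 2 copies, Mcpt8 (-188 and -139). In Ctsg it overlaps the only CATGTG (-77). The Mcpt9 window held none of the 6 motifs. Of all 32851 promoters of this length, 22.6% hold GATAA, 14% TGTGGT, 12.3% CATGTG, 17.1% CAGACA, 6.02% CACGTG and 0.167% GTCTAGAC. The matches are a description of letters only. All windows are reference sequence, and the promoters of the 2 strains were not compared.

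Between 28273365 and 37100869 estimated reads per library fell on named genes. Levels are given as CPM, which are read counts scaled to library size with a correction for composition by trimmed means (TMM). Where genes of different length are compared, they are given as TPM. TPM divide estimated counts by transcript length and are scaled to a fixed sum per library, without the TMM correction. Of 8 mast cell markers, all 8 were tested and only Hdc passed the call rule defined below, and their summed level was 12769 to 12900 CPM in BALB/c and 13384 to 13946 CPM in C57BL/6. Of 8 basophil markers 4 were called higher in C57BL/6, with 405 to 418 CPM in sum in BALB/c and 512 to 523 in C57BL/6. These were Mcpt8, Prss34, Cebpa and Ccl9. Prss34, a basophil protease, measured 0.0314 to 0.268 CPM in BALB/c and 6.33 to 7.09 CPM in C57BL/6. Cebpa measured 0.0532 to 0.157 and 9.35 to 10.3 CPM, and the chemokine gene Ccl9 0.157 to 0.346 and 10.4 to 11.5 CPM. All 3 were thus near 0 in BALB/c and passed the filter on low counts through C57BL/6. Without Mcpt8 the sums were 324 to 329 CPM in BALB/c and 330 to 343 in C57BL/6, most of it from Cd200r3, which was not called (means of 310.2 and 296 CPM). The neutrophil list held 11 genes, of which Elane, Ltf, Camp, Ngp, S100a8 and S100a9 had 0 reads in every library and Ctsg was called lower. Of 8 macrophage markers 2 (Adgre1 and Cd68) were tested and both were called higher, 4 had 0 reads, and the summed level was 0.704 to 1.63 CPM against 13.3 to 13.9 CPM. Adgre1 measured 0 to 0.502 CPM in BALB/c and 9.51 to 10.3 CPM in C57BL/6. It too passed the filter on low counts through C57BL/6. None of 4 eosinophil and 3 B cell markers had enough reads to be tested. Of 6 T or NK cell markers 1 was tested (Ncr1, log2 fold change -0.14), and of 3 pancreas acinar markers 1 (Cpb1, -0.44). Whether these markers have a part in the results was not tested.

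Genes were tested with the quasi-likelihood test of edgeR, with Benjamini-Hochberg adjustment over 12461 genes. A gene was called when the adjusted p was under 0.05 and the fold change exceeded 2. Both limits of this rule are those of the study, which tested with DESeq2. By this rule 5 of the 9 genes were called, against 13.3% of all genes tested. Cma2, Mcpt8 and Mcpt9 were higher in C57BL/6, a direction in which 7.73% of all genes were called. Mcpt4 and Ctsg were lower, against 5.54% of all genes. By adjusted p alone 8 of 9 passed, against 52.9% of all genes. The strains did not overlap in CPM for 8 of 9 genes, all but Cpa3, against 61.9% of all genes. They did not overlap in TPM for 8 of 9 either, all but Mcpt1, against 69.5%. The median absolute log2 fold change was 1.12 in the 9 genes and 0.24 in all genes tested. The median signed log2 fold change was 0.29 and -0.0073. The 9 genes were chosen with earlier results of these data known. The study already lists Cma2, Mcpt9, Mcpt4 and Ctsg among its differing proteases. It also lists Mcpt1 and a joint entry for Cma1 and Mcpt8, both as higher in C57BL/6. Here Mcpt1 was higher but under 2-fold, Cma1 was lower and Mcpt8 was called higher. By RT-qPCR the study had Cma1 lower in C57BL/6 at later days of culture. These counts and medians therefore describe the genes and are no test of them as a set.

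**Figure D1:**
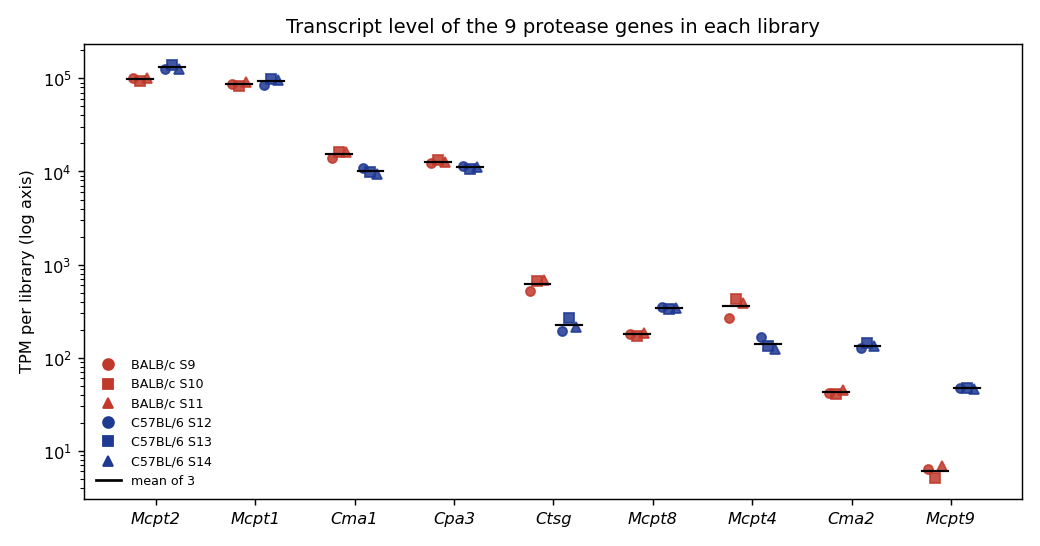
Level of each of the 9 genes in each library, in TPM on a log axis, with BALB/c in red, C57BL/6 in blue, marker shapes for libraries and black bars for the mean of 3. Mcpt2 and Mcpt1 lie highest in both strains and Mcpt9 lies lowest, at 6.11 TPM on average in BALB/c and 46.8 TPM in C57BL/6.

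Mcpt2, a chymase family member of mucosal mast cells, was the most abundant transcript of all genes in both strains by mean TPM. It measured 55627, 51745 and 56778 CPM in S9, S10 and S11 and 77861, 90743 and 80092 CPM in S12, S13 and S14. All C57BL/6 libraries lay above all BALB/c libraries. Expressed as log2 of C57BL/6 over BALB/c, the fold change was 0.60 ± 0.06 (SE, n = 3 per strain, edgeR adjusted p = 2.86e-05), short of a 2-fold change. Fewer cells that express a gene and less RNA per cell cannot be told apart in bulk RNA.

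Mcpt1, a chymase secreted by mucosal mast cells, ranked second of all genes in both strains. It measured 51559.6, 49615 and 55307 CPM in BALB/c and 57150.6, 68508 and 65179 CPM in C57BL/6. The strains stood apart in CPM by a narrow gap, and they overlapped in TPM, where BALB/c S9 and S11 exceeded C57BL/6 S12. The log2 fold change was 0.29 ± 0.06 (SE, n = 3 per strain, edgeR adjusted p = 0.00494). With the plain total of reads as library size it was 0.14 with an edgeR adjusted p of 0.0677, so the adjusted p lay on the other side of 0.05. Scaling in that way moved the median of all genes to -0.15, so that Mcpt1 still lay above that median.

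Cma1, the mouse alpha-chymase, was lower in C57BL/6 than in BALB/c. It measured 8758, 10456 and 10459 CPM in BALB/c and 7841, 7384 and 6805 CPM in C57BL/6. The lowest BALB/c library, S9, lay above the highest C57BL/6 library, S12. This gave a log2 fold change of -0.43 ± 0.07 (SE, n = 3 per strain, edgeR adjusted p = 0.00107), under the 2-fold limit.

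Cpa3, whose protein is stored together with that of Cma1, differed least. It measured 10768, 11767 and 11634 CPM in BALB/c and 11480, 10939.7 and 11282 CPM in C57BL/6. The strains overlapped in CPM, and the log2 fold change was -0.02 ± 0.04 (SE, n = 3 per strain, edgeR adjusted p = 0.699). They did not overlap in TPM, with 12186 to 13132 in BALB/c and 10507 to 11527 in C57BL/6. With the plain total of reads as library size the log2 fold change was -0.16 with an edgeR adjusted p of 0.00862, which lies at the shifted median of all genes (-0.15).

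Mcpt4, the chymase closest in function to the human enzyme, was lower in C57BL/6. It measured 150.1, 242 and 224 CPM in BALB/c and 106, 88.6 and 80.8 CPM in C57BL/6. BALB/c S9 stood well below S10 and S11 but above every C57BL/6 library, and the BALB/c coefficient of variation of 23.7% was the highest of the 9 genes in either strain. The log2 fold change was -1.16 ± 0.17 (SE, n = 3 per strain, edgeR adjusted p = 0.000347). With 1 library left out at a time it lay between -1.35 and -1.03.

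Ctsg, cathepsin G, was lower in C57BL/6 as well. It measured 297, 383 and 399 CPM in BALB/c and 124, 178 and 139 CPM in C57BL/6. As with Mcpt4, S9 was the lowest BALB/c library, and the strains did not overlap. The log2 fold change was -1.29 ± 0.14 (SE, n = 3 per strain, edgeR adjusted p = 6.44e-05). The other defining neutrophil granule genes gave no comparable level: the 11-gene list without Ctsg summed to 1.04 to 1.17 CPM in BALB/c and 0.739 to 0.847 in C57BL/6.

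Mcpt8, a granzyme-like protease used as a basophil marker, was higher in C57BL/6. It measured 82.4, 81.2 and 88.2 CPM in BALB/c and 186, 179.9 and 182 CPM in C57BL/6. Replicates lay close together, with coefficients of variation of 4.45% and 1.59%. On the log2 scale the fold change was 1.12 ± 0.04 (SE, n = 3 per strain, edgeR adjusted p = 8.22e-08). Over the alternatives the value ran from 0.93 to 1.16, and plain library size or TPM took it below 2-fold. No 31-base word of its transcripts occurs in a transcript of another gene, and the same holds for Ctsg.

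Mcpt9, a protease known from uterine mast cells, showed the widest difference of the 9 genes. It measured 8.16, 6.54 and 8.96 CPM in BALB/c and 67.6, 70.2 and 66.6 CPM in C57BL/6. These CPM values rest on 195 to 337 reads per BALB/c library and 1901 to 2360 per C57BL/6 library. The log2 fold change was 3.10 ± 0.09 (SE, n = 3 per strain, edgeR adjusted p = 1.42e-08).

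Cma2, a second chymase-type gene beside Cma1, was also higher in C57BL/6. It measured 20.9, 20.5 and 22.7 CPM in BALB/c and 74.5, 86.4 and 79.9 CPM in C57BL/6. The strains stood far apart, and the log2 fold change was 1.91 ± 0.07 (SE, n = 3 per strain, edgeR adjusted p = 4.27e-08). Cma2 and Mcpt9 share sequence: of the 31-base words of Cma2 transcripts 44.6% also occur in Mcpt9, which makes up 24.2% of the words of Mcpt9, and their transcripts were identical at 98.15% of aligned bases. The split of reads between them is therefore an estimate. Summed into a single gene, they gave a log2 fold change of 2.34. Cma2 also shares 10.3% of its words with Mcpt4, which differed in the opposite direction. On the opposite strand it shares 8.05% with Gm62820 and 1.69% with Mcpt-ps1. In all, 59.1% of the words of Cma2 occur in some other gene.

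Smaller overlaps exist elsewhere. Mcpt1 shares 3.46% of its words with Mcpt2, Cma1 9.17% with the unnamed gene Gm48934, and Cpa3 10.1% with Gm31320 on the opposite strand, which the stranded kit keeps apart only if the strand was used in counting.

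**Figure D2:**
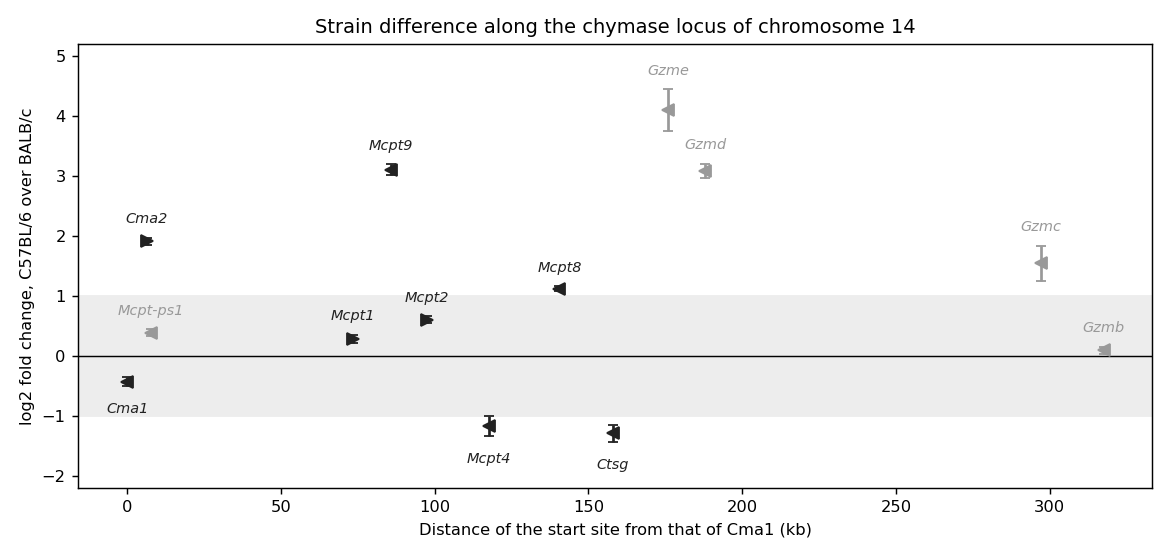
Log2 fold change of each gene of the locus (C57BL/6 over BALB/c, bars for SE) against the distance of its start site from that of Cma1 in kb. Black marks are the members and grey marks other genes of the locus, arrowheads point in the direction of transcription, and the grey band spans 2-fold in either direction. Mcpt4 lies at -1.16 between Mcpt2 and Mcpt8, which lie at 0.60 and 1.12. Cma2 is placed at the start of its 857-base transcript.

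The 8 genes of the cluster span 161 kb of chromosome 14 (GRCm39, GENCODE annotation), and the plot of log2 fold change by distance places them in order. From Cma1 (56178908 to 56182132, minus strand) the start sites follow at 6.30 kb for Cma2, 73.3 kb for Mcpt1, 85.8 kb for Mcpt9, 97.4 kb for Mcpt2, 117.6 kb for Mcpt4, 140.6 kb for Mcpt8 and 157.9 kb for Ctsg. For Cma2 this is the start of the 857-base transcript (56188437), and the 983-base transcript starts farther from Cma1, at 56208885. Direction did not follow position: Mcpt4 (lower) lies between Mcpt2 and Mcpt8 (both higher), and Cma1 (lower) lies beside Cma2 (higher). Cpa3 is at 20269774 to 20296362 on the minus strand of chromosome 3. Of 8 other genes listed for the locus 5 were tested and 3 were called, all higher in C57BL/6. These were granzymes of cytotoxic lymphocytes at low levels. Of all genes tested, 7.73% were called in that direction. Gzme was near 0 in BALB/c and passed the filter on low counts through C57BL/6. Gzmd measured 1.38 to 1.68 CPM in BALB/c and 11.8 to 13.9 CPM in C57BL/6, Gzme 0.0798 to 0.345 and 3.67 to 4.84 CPM, and Gzmc 0.319 to 0.597 and 1.07 to 1.497 CPM. Gzmb, the granzyme at the far end of the locus, differed by 0.09 and the pseudogene Mcpt-ps1 by 0.39, and neither was called. Gzmf, Gzmg and Gzmn had 0 reads.

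The make-up of the protease pool was then compared within libraries, which needs no scaling between them. Together the 9 genes held 21.5 ± 0.748% of all TPM in BALB/c and 24.7 ± 1.29% in C57BL/6 (mean ± SD, n = 3), with library ranges of 20.7 to 22.1% and 23.5 to 26.0%. Mcpt2 held 46.9, 44.9 and 45.3% of this pool in BALB/c and 53.4, 53.9 and 51.9% in C57BL/6. Mcpt1 held 40.5, 40.2 and 41.1% and then 36.6, 37.9 and 39.4%. The share of Mcpt2 was thus 7.35 points higher in C57BL/6, whereas that of Mcpt1 differed by -2.65 points. Cma1 held 6.41, 7.89 and 7.24% of the pool in BALB/c and 4.68, 3.81 and 3.83% in C57BL/6. Cpa3 held 5.65, 6.36 and 5.77% and then 4.91, 4.04 and 4.56%. Both genes were thus a smaller part of the pool in every C57BL/6 library than in any BALB/c library, although the CPM of Cpa3 overlapped.

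**Figure D3:**
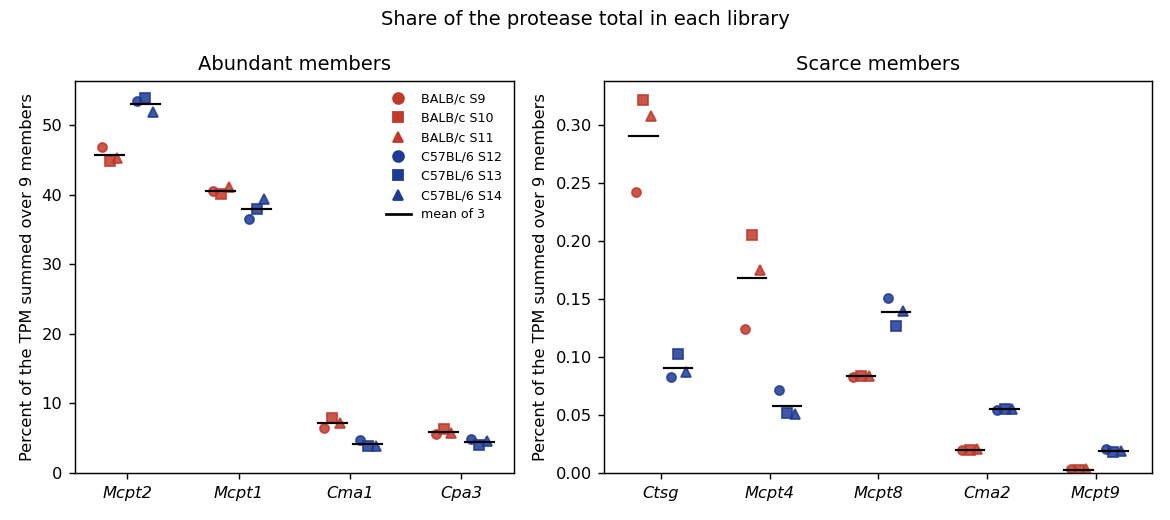
Percent of the TPM summed over the 9 genes that each gene held in each library, with the abundant genes on the left and the scarce genes on the right at a different scale, and black bars for the mean of 3. For every gene the 3 points of one strain lie clear of the 3 points of the other.

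The other 5 genes made up 0.564 ± 0.0839% of the pool in BALB/c and 0.361 ± 0.0150% in C57BL/6 (mean ± SD, n = 3). Ctsg led them in BALB/c with 0.290%, followed by Mcpt4 with 0.168%. In C57BL/6 Mcpt8 led with 0.139%, followed by Ctsg with 0.0905%. The strains did not overlap in the share of any of the 9 genes. A matching count of shares over all genes was not made. In TPM the strains did not overlap for 69.5% of all genes tested. Each of the 9 shares gave an exact two-sided permutation p of 0.1. This is the smallest that 3 libraries against 3 allow, so that no share could pass 0.05. Shares sum to a fixed total, so the 9 shares are not independent.

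Ranked by mean TPM, the BALB/c order was Mcpt2, Mcpt1, Cma1, Cpa3, Ctsg, Mcpt4, Mcpt8, Cma2 and Mcpt9, and no neighbours in that order overlapped. In C57BL/6 the order was Mcpt2, Mcpt1, Cpa3, Cma1, Mcpt8, Ctsg, Mcpt4, Cma2 and Mcpt9, and the libraries of Cpa3 and Cma1 and those of Mcpt4 and Cma2 overlapped. Between the fourth and the fifth gene the mean fell 20.4-fold in BALB/c and 29.6-fold in C57BL/6, which set 4 abundant apart from 5 scarce genes in both strains. The mean TPM of Mcpt2 was 16046-fold that of Mcpt9 in BALB/c and 2800-fold in C57BL/6.

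Ratios of TPM within a library were computed for 8 pairs. The ratio of Mcpt2 to Mcpt1 was 1.16, 1.12 and 1.10 in the BALB/c libraries, against 1.46, 1.42 and 1.32 in those of C57BL/6. The ratio of Cma1 to Cpa3 was 1.14, 1.24 and 1.26 in the BALB/c libraries, against 0.952, 0.943 and 0.841 in those of C57BL/6. Cma1 thus exceeded Cpa3 in every BALB/c library and lay under it in every C57BL/6 library. Mcpt1 exceeded Mcpt4, whose promoter it resembles most among the windows compared, 247-fold in BALB/c and 664-fold in C57BL/6 (geometric means). Mcpt8 exceeded Mcpt9 29.4-fold and 7.30-fold. Mcpt9 stood at 0.143 of the level of Cma2 in BALB/c and 0.347 in C57BL/6, subject to the shared sequence given above. Relative to Cma1, Mcpt4 stood at 0.0231 in BALB/c and 0.0140 in C57BL/6. Ctsg stood at 0.0403 and 0.0224 of Cma1, so the ratios of both genes were lower in C57BL/6 although Cma1 itself was lower there. The ratio of Cpa3 to Mcpt1 was 0.146 in BALB/c and 0.119 in C57BL/6. None of the 8 ratios overlapped between the strains, and each exact permutation p was 0.1, the smallest possible. The 8 pairs were picked among the members, and pairs of other genes were not compared, so this count has no background beside it.

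**Figure D4:**
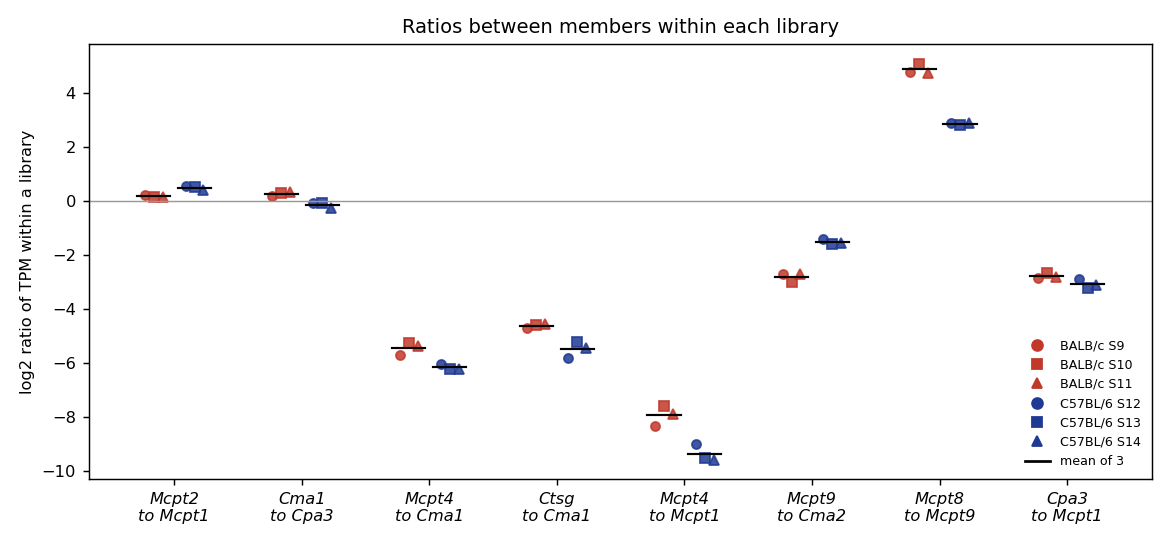
Log2 of the ratio of TPM between 2 members within each library for the 8 pairs, with BALB/c in red, C57BL/6 in blue and black bars for the mean of 3. Cma1 to Cpa3 lies above 0 in BALB/c and below 0 in C57BL/6, and the strains do not overlap in any pair.

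The tables list 13 transcripts of the 9 genes, all tested, and 7 were called (5 higher and 2 lower in C57BL/6), against 6.32% of all transcripts tested. Of these calls, that of the Mcpt4 transcript was lost in 5 of 6 fits with 1 library left out, all but the one without BALB/c S9 (edgeR adjusted p of 0.0525 to 0.0852 in the 5). That of the predicted Mcpt8 transcript was lost in 4 of 6, those without S9, S11, S12 or S14 (edgeR adjusted p of 0.0585 to 0.0705). The only transcript of Mcpt1 had an edgeR adjusted p of 0.201 in this fit, although the gene passed 0.05 in the fit over genes. Cma2 was the gene whose transcripts differed in their share of the gene. Its 983-base transcript measured 13.5, 10.8 and 10.8 TPM in BALB/c and 69.9, 66.7 and 72.6 TPM in C57BL/6. Its 857-base transcript measured 28.5, 30.05 and 34.0 TPM in BALB/c and 57.2, 77.0 and 62.0 TPM in C57BL/6. Both were higher in C57BL/6, the longer by a log2 fold change of 2.74 (edgeR adjusted p = 0.000184) and the shorter by 1.25 (edgeR adjusted p = 0.00638). The longer transcript made up 27.6 ± 4.12% of Cma2 TPM in BALB/c and 51.8 ± 4.69% in C57BL/6 (mean ± SD, n = 3), with no overlap (exact permutation p = 0.1). By length the longer transcript matches a GENCODE transcript of 5 exons that starts at 56208885. The shorter one matches a transcript of 4 exons that starts at 56188437, where Mcpt-ps1 is annotated on the opposite strand. The split between the 2 is an estimate, since the 983-base transcript was identical to that of Mcpt9 at 98.15% of 809 aligned bases. Whether reads of Mcpt9 have a part in the shift was not tested.

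**Figure D5:**
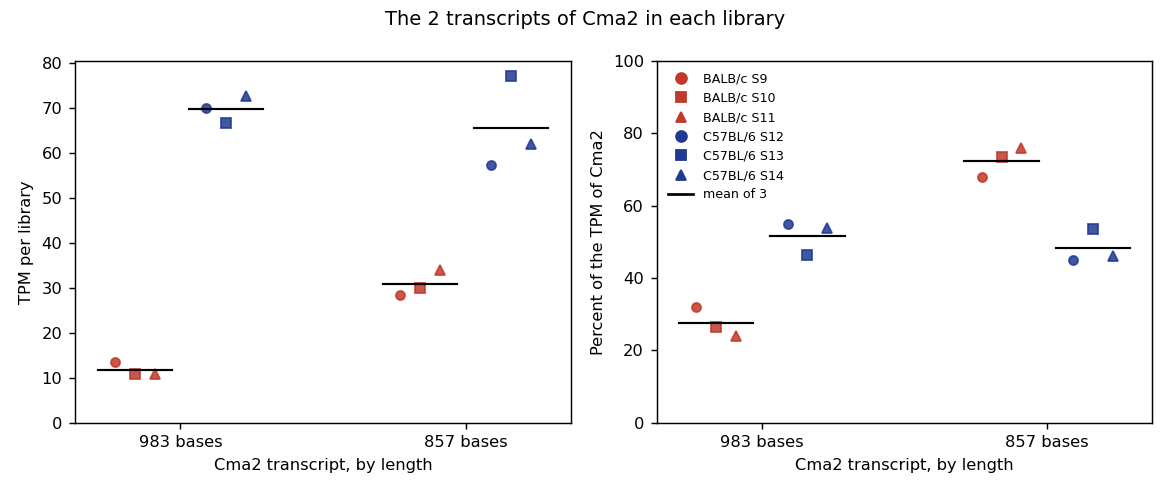
The 2 transcripts of Cma2 in each library, as TPM on the left and as percent of the TPM of the gene on the right, with BALB/c in red, C57BL/6 in blue and black bars for the mean of 3. The 983-base transcript lies between 24.1 and 32.1% in BALB/c and between 46.4 and 55.0% in C57BL/6. The split is an estimate, since Cma2 shares sequence with Mcpt9.

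In the other genes with several transcripts a single one carried nearly all of the TPM. The predicted transcript of Cpa3 made up 2.69 ± 0.157% of the gene in BALB/c and 2.71 ± 0.139% in C57BL/6, and that of Mcpt2 0.118 ± 0.0160% and 0.0860 ± 0.0153% (mean ± SD, n = 3). The predicted transcript of Mcpt8 was higher by a log2 fold change of 1.54 (edgeR adjusted p = 0.0161) and its curated one by 1.09 (edgeR adjusted p = 0.000198). The predicted transcript rested on 62 to 67 reads per library in BALB/c, and its call is among those lost above.

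Genes of protease activation and granule storage were read from a list of 11, all of which were tested. Only Hdc, which makes the histamine stored beside the proteases, was called, with a log2 fold change of 1.19 (edgeR adjusted p = 0.000735). Its level was low, at 1.75 to 2.82 CPM in BALB/c and 4.41 to 5.91 CPM in C57BL/6. Ctsc, the dipeptidyl peptidase that removes the activation dipeptide of chymases and granzymes, differed by -0.61. Ndst2, which sulfates the heparin that holds the proteases, differed by -0.55. Srgn, the core protein that carries that heparin, differed by 0.02. Lxn, an inhibitor of carboxypeptidases A, differed by 0.46. Of the 4 other granule proteases, the tryptase-locus genes Tpsb2, Tpsg1 and Prss34 were called higher and Tpsab1 lower. Together these 4 held 5.08 ± 0.730% of the TPM of both protease sets in BALB/c and 3.63 ± 0.307% in C57BL/6 (mean ± SD, n = 3).

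Of 14 other metallocarboxypeptidases 3 (Cpd, Cpb1 and Cpxm1) passed the filter on low counts. Their log2 fold changes were -0.08, -0.44 and -0.27, with edgeR adjusted p of 0.224, 0.140 and 0.464. No gene that failed the filter had more than 10 reads in a library. Together the 14 genes reached 103 to 117 CPM in BALB/c and 102 to 103 CPM in C57BL/6, far under the level of Cpa3.

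Receptors and factors of the cytokines in the medium, and transcription factors known to act on these genes, made up a list of 20, of which 19 were tested and 1 was called. This was Cebpa, a myeloid transcription factor that also stands in the basophil list, at the levels given there. With so few reads in BALB/c no fold change is given. The GATA factor Gata1 differed by -0.45 and Gata2 by 0.07, Mitf by -0.23 and Runx1 by 0.40. The receptor subunit Csf2rb2 differed by 0.63, Il9r by -0.40 and the TGF-β inhibitor Smad7 by 0.65. None of these differences reached 2-fold.

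By Euclidean distance of centred log2(CPM + 1) profiles over the 6 libraries, each gene was compared with 9934 genes. For the genes lower in C57BL/6, the nearest were Atpaf1, Nupr1 and Klk8 for Cma1, Fam160a2, Pigz and Epor for Mcpt4, and Hmgn3, Alad and Gm20627 for Ctsg. For the genes higher in C57BL/6, they were Kcne3, Snx15 and Zfp97 for Mcpt2, Rab40b, Dph1 and Ptpmt1 for Mcpt1, Ptpn22, Stt3b and Gcnt1 for Mcpt8, Nxn, Igfbp4 and Nhsl1 for Cma2, and Ndufaf2, Adgre1 and Gm35037 for Mcpt9. Pomp, Stx8 and Ccdc174 were nearest to Cpa3. Adgre1 is one of the 2 macrophage markers given above. Ndufaf2 and Adgre1 were near 0 in BALB/c, with means of 0.227 and 0.309 CPM, against 7.89 CPM for Mcpt9. At such levels the added 1 narrows log2 differences, so their small distance to Mcpt9 does not mean an equal fold change. Distances to the nearest gene ran from 0.0445 for Cpa3 to 0.380 for Ctsg. No member was among the nearest 3 of another member, and the closest pair of members was Mcpt1 and Mcpt2 at 0.403.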

How the data were processed

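RNA of BMMCs from 3 BALB/c and 3 C57BL/6 cultures was sequenced by the authors as stranded mRNA libraries. They checked the reads with FastQC 0.11.5 and assigned them to transcripts with Salmon 0.8.2. For each transcript the deposited tables hold an estimated count, which need not be whole, the deposited TPM, in which the estimated count is divided by effective length and scaled to a fixed sum, and the length in bases as used by the authors. The methods name Ensembl transcripts of GRCm39, whereas the tables list RefSeq accessions.

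Accessions without version were paired with symbols through a RefSeq gene table (GRCm38.p6), which matched 106440 of 129698 transcripts. Transcripts without a match, with 2.69 to 3.12% of reads, were not used. Reads of a gene were the sum of its estimated counts, rounded to whole numbers. Genes were filtered with filterByExpr (minimum count 10), scaled by TMM and tested with edgeR 4.0.16 (quasi-likelihood, two-sided, Benjamini-Hochberg adjustment, biological coefficient of variation 0.0665). On data simulated for this comparison on 12461 genes, all at that coefficient of variation, edgeR recovered 199 of 200 genes changed 4-fold with 0 false calls. Changes nearer to 2-fold and genes with a wider spread, such as Mcpt4, were not simulated. Shares and ratios of TPM were compared by exact permutation over libraries. Alternatives used DESeq2 1.42.0, limma 3.58.1 and other scalings, filters and subsets of libraries. Genes of the members, of their lists and by the 3 smallest profile distances (mean of at least 100 reads) were named. The members and lists were chosen with earlier results of these data known. The transcript reference carries the sequence of 1 strain, and its effect on reads of BALB/c was not tested. Library numbers are not shared between strains. Protein sequences were not used here.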

Additional observations from a re-analysis of the deposited data

How the results depend on the processing

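The direction of Cma2, Mcpt9, Mcpt8, Mcpt2, Mcpt1, Cma1, Mcpt4 and Ctsg held under each alternative that was run (other scalings, filters, DESeq2, limma on log2 TPM, length offsets, unmatched transcripts kept, 1 library left out). Cpa3, which was not called, ranged from -0.20 to 0.00186. Without a limit on fold change 8 members passed. Mcpt1 missed the threshold with plain library size (log2 fold change 0.14) and with limma on log2(TPM + 1) and log2(TPM + 0.1) (0.10 in both), and Cpa3 passed it under the same 3 settings (-0.16, -0.20 and -0.20). These settings moved the median of all genes to -0.15, -0.15 and -0.18, and Mcpt8 then fell under 2-fold, which left 4 members called. With 1 library left out 5 members were called each time. Counted in reads in place of TPM, the share of Cpa3 differed by -2.04 points in place of -1.42, since Cpa3 has the longest transcript of the 4 abundant members, and that of Mcpt9 by 0.0351 in place of 0.0162. At transcript level the adjusted threshold was missed with 1 library left out in 5 of 6 fits for the transcripts of Cma1 and of Mcpt4, in 4 of 6 for the predicted one of Mcpt8 and in 2 of 6 for the curated one of Mcpt2. The transcript of Mcpt1 missed it as reported and in all 8 alternatives run. The cause was not tested. No paired analysis was possible because the libraries of the strains share no number. The least reads behind a member were 195 in a library (Mcpt9 in BALB/c). Exact permutation of shares and ratios cannot go below p = 0.1.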
